A study of Homo sapiens with 8 samples.

Results

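SYK encodes spleen tyrosine kinase, a cytoplasmic kinase best known from blood cells. There it binds the phosphorylated ITAM motifs of immune receptors and their adapters, which are marked by kinases of the Src family, and it passes the signal on to adapters such as BLNK and LCP2, to phospholipase C gamma, to VAV exchange factors and to the BCL10 and MALT1 complex that activates NF-kB. SYK can also signal below integrins, and it is known outside the blood as a gene that some epithelial cells express and that some carcinomas silence. It was 1 of the 25411 genes listed in each library and was chosen by its reads and RPKM over the 4 groups, so its own levels are described here without a test.

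RNA-Seq counts were analysed from 8 libraries of the BEAS-2B line, immortalized human bronchial epithelial cells, with 2 biological replicates in each group. Untreated cells (UT) were the control. Nickel-exposed cells (Ni-E) were cultured for 6 weeks with 100 µM NiCl2. After this exposure, nickel-washed-out cells (Ni-W) were grown without nickel, as the progeny of 1 colony, for more than 6 months. HCl3 cells carry the same treatment text in the labels, which give no time without nickel for them. By this text both washed-out groups were grown from isolated colonies. No untreated clone was analysed here, and an effect of nickel and a difference between clones cannot be told apart. An experiment number is given only for Ni-E (2 for both libraries) and for HCl3 (3 for one and 4 for the other), so experiment and group cannot be told apart either.

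The files list SYK on the plus strand of chromosome 9, from 93589702 to 93660842 in hg19, with 4 RefSeq transcripts counted together. The value is a sum over the exons of all 4 and belongs to no single exon or UTR. No other listed gene overlaps this interval. In the RefSeq annotation of GRCh38.p14 the gene has 3 start sites on chromosome 9, and the second lies 219 bases and the third 25820 bases after the first. The listed hg19 interval is 71140 bases long, against 71129 bases from the third start to the gene end and 96949 from the first, in GRCh38. Gene counts do not tell which start was used in these cells. The 250 bases before the first and the third start are shown because the start regions differ in their content of CG, the dinucleotide at which DNA is methylated. Every CG, which reads the same on both strands, is in capitals, the sequences run 5′ to 3′ on the plus strand and come from RefSeq, and they cover chr9:90801350-90801599 and chr9:90827170-90827419 in GRCh38.p14.
SYK, before the first start: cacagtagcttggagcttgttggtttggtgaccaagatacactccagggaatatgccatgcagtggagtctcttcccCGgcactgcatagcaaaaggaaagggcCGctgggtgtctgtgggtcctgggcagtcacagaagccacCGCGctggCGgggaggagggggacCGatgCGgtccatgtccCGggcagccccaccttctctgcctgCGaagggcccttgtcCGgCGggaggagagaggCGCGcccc
SYK, before the third start: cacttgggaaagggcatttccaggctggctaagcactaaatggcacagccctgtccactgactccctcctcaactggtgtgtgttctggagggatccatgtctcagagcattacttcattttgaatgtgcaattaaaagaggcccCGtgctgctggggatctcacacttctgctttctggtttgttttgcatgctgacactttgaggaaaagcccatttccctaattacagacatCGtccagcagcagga
The first sequence holds 13 CG and the other holds 2. Counted over the full windows of 300 bases, which also take in 50 bases after the start, the first start had 19 CG, the second 40 and the third 2. Of the 35116 RefSeq start windows of this length, 42.9% held at least 19 CG, 7.6% at least 40 and 89.0% at least 2, around a median of 14, and 96.0% held at least 1. The second window overlaps a SYK exon and is not printed.

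No SYK read was found in untreated or nickel-exposed cells. SYK had 0 reads in both UT libraries and 0 in both Ni-E libraries, that is 0 of 132443516 reads in these 4 libraries together. It had 860 and 535 reads in the Ni-W libraries, and 22 and 20 in the HCl3 libraries. The groups fell into 3 levels that did not overlap, with UT and Ni-E together at 0, HCl3 low and Ni-W high. Totals per library ran from 26383920 to 45692298 reads and did not follow this order, since SYK had 0 reads in a UT library of 37469371 reads and 535 in a Ni-W library of 31141364.

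On the RPKM scale, which divides reads by gene length and library depth, SYK stood at 3.28 and 3.01 in Ni-W (mean 3.15 ± 0.191, SD, n = 2) and at 0.11 and 0.10 in HCl3 (0.105 ± 0.00707, SD, n = 2). The level of 3 reads, taken as the floor of detection, was worth between 0.0114 and 0.02 RPKM of SYK, depending on the library. Set against this floor, the lowest Ni-W library was at least 150.4-fold higher than UT and at least 195-fold higher than Ni-E. The lowest HCl3 library, at 0.10 RPKM, was about 5.0-fold above the floor in UT and about 6.5-fold above that in Ni-E. This RPKM is rounded to 2 decimals, so the HCl3 folds are approximate and not strict minimums. UT and Ni-E could not be ordered, since both were below the floor, and a level under it was not detectable at this depth.

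Ni-W and HCl3 differed from each other by far more than their replicates did. The ratio of their mean RPKM was 29.95, and the ratio of their share of all reads was 32.5 with a 95% exact interval of 23.9 to 45.3 that covers counting error only. In bulk RNA, fewer cells with SYK transcripts and fewer transcripts per cell cannot be told apart. Among genes with at least 1 read, 46.0 and 43.2% lay below SYK by RPKM in the Ni-W libraries, so SYK was a gene of middle rank there. In the HCl3 libraries 14.4 and 13.8% lay below it.

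**Figure D1:**
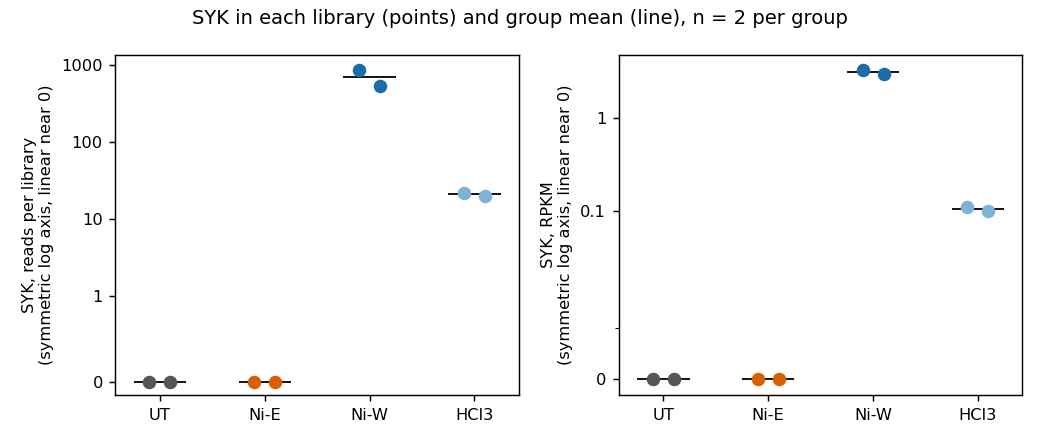
SYK in each of the 8 libraries (points) with the group mean (line, n = 2 per group), as reads per library on the left and as RPKM on the right, both on a symmetric log axis that is linear near 0. UT and Ni-E lie at 0, HCl3 at 20 to 22 reads and Ni-W at 535 to 860 reads.

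SYK was 1 of 7546 listed genes with 0 reads in all 4 UT and Ni-E libraries. Of these, 9 reached at least 50 reads in both Ni-W libraries, a minimum set after the values were seen, and SYK ranked 2 among them by mean RPKM. They included MGMT, ZNF883, GALC, RCAN2, ZNF347, PDGFD and FREM2. MGMT, which encodes a DNA repair protein that removes alkyl groups from guanine, was the only one above SYK, at 5.62 and 4.43 RPKM in Ni-W.

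These genes differed in how they stood in HCl3. HCl3 held 73.5% of the Ni-W level for MGMT, 104% for the zinc finger gene ZNF883 and 158% for GALC, a lysosomal enzyme of galactolipid breakdown. For SYK it held 3.34%, for FREM2 9.68% and for PDGFD, a growth factor, 12.2%. RCAN2, a regulator of calcineurin, had 168 and 123 reads in Ni-W and 0 in both HCl3 libraries. In all, 4 of the 9 had at least 50 reads in both HCl3 libraries too, namely MGMT, ZNF883, GALC and ZNF347. Of the 7546 genes, 7 reached this minimum in both HCl3 libraries. The 9 were chosen by their Ni-W reads, which favors a lower share in HCl3, so these shares are a description only.

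The surroundings of SYK were sparse. Within 2 Mb on either side of its listed interval, 40 genes were listed, 15 at lower and 25 at higher coordinates. Of these, 11 had 0 reads in every library, 11 had a mean below 10 reads and 18 had a mean of at least 10. The nearest gene at lower coordinates is DIRAS2, a small GTPase gene 184.6 kb away, which had 1 read in each Ni-W library and 0 in the other 6. The nearest at higher coordinates is LOC100129316, 164.7 kb away, with 0 to 5 reads per library. The nearest gene with a mean of at least 10 reads was AUH, which encodes a mitochondrial enzyme of leucine breakdown. It lies on the minus strand, and its nearer end is 315.3 kb after SYK.

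AUH was read in every group, unlike SYK. It stood at 4.85 and 4.87 RPKM in UT and 5.23 and 5.16 in Ni-E, against 6.96 and 6.24 in Ni-W, while HCl3 had 5.76 and 5.23. Both Ni-W libraries were above the other 6, with a log2 fold change over UT of 0.41 ± 0.19 (SE) that did not pass the test (adjusted P = 0.0989). By RPKM, SYK ranked 14 of the 41 genes of the region, itself included, in both Ni-W libraries and 19 of 41 in both HCl3 libraries.

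Neighbors were tested with DESeq2 on the counts of all genes, 4 libraries at a time, and called at an adjusted P value under 0.05 with at least a 1.5-fold change. Comparisons with UT share the same 2 UT libraries. Between Ni-E and UT, 0 of the 19 neighbors tested were called, where 5.8% of the 14478 genes tested were (3.75% higher and 2.05% lower). At an unadjusted P under 0.05 there were 2, edgeR called 0, and 1 passed the adjusted P without the fold threshold (11.6% of all genes). That 1 was IARS, the isoleucyl-tRNA synthetase, at 81.56 and 89.88 RPKM in UT, while Ni-E had 117.11 and 112.67 (log2 fold change 0.37 ± 0.11, adjusted P = 0.00984). The neighbors had a median log2 fold change of 0.10, against -0.002 for all genes tested.

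Between Ni-W and UT, 5 of 24 neighbors tested were higher and 0 lower, which is 20.8%, where 15.7% of the 15826 genes tested were called (10.9% higher and 4.83% lower). S1PR3, a receptor for sphingosine-1-phosphate, had the smallest adjusted P of the 5. It stood at 2.01 and 2.03 RPKM in UT and 2.00 and 2.32 in Ni-E, against 9.06 and 9.96 in Ni-W, while HCl3 had 5.78 and 5.72. UT and Ni-E overlapped, and both washed-out groups lay above them without overlap, Ni-W highest. S1PR3 lies 1970 kb before SYK, near the edge of the region, and rose by 2.20 ± 0.15 on the log2 scale (adjusted P = 2.76e-48). It overlaps C9orf47 on the same strand, where the counting could split reads, but C9orf47 had no more than 21 reads in any library.

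ROR2, a receptor for WNT5A 824 kb after SYK, stood at 4.20 and 4.19 RPKM in UT and 4.10 and 4.66 in Ni-E, against 6.70 and 7.19 in Ni-W, while HCl3 had 6.61 and 7.39. It rose by 0.69 ± 0.14 in Ni-W (adjusted P = 1.4e-05), and Ni-W and HCl3 overlapped. NFIL3, a transcriptional repressor 510.5 kb after SYK, stood at 9.37 and 9.28 RPKM in UT and 11.10 and 10.80 in Ni-E, against 14.04 and 14.61 in Ni-W, while HCl3 had 15.69 and 16.60. It rose by 0.59 ± 0.14 (adjusted P = 0.000172). The highest group was HCl3 for NFIL3 and Ni-W for SYK, and both genes were higher in both washed-out groups than in UT and Ni-E.

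LOC100128361 rose by 0.88 ± 0.35 (adjusted P = 0.0391). It lies inside IPPK on the opposite strand, and since the use of strand in counting is not stated, reads of the 2 genes cannot be told apart. SHC3, an adapter of receptor tyrosine kinases, was named after its values were seen. It had 1 and 0 reads in UT and 8 and 2 in Ni-E, against 27 and 16 in Ni-W, while HCl3 had 4 and 6. In Ni-W it was at least 4.52-fold above the floor of 3 reads in UT (adjusted P = 0.0106). The count of 5 fell to 2 without UT replicate 2 or without Ni-W replicate 2, and to 3 without Ni-W replicate 1. S1PR3 and ROR2 were called without each library in turn. LOC100128361 was not called without any 1 of the 4 libraries (0.84 to 0.92), nor SHC3 without UT replicate 2 or either Ni-W library (4.34 to 5.21), nor NFIL3 without UT replicate 2 (0.58), without Ni-W replicate 2 (0.56) or with all 8 libraries in 1 fit (0.58).

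Without the fold threshold, 7 of 24 neighbors passed in Ni-W against UT (31.1% of all genes), adding SEMA4D, a semaphorin, at 0.50 ± 0.14 (adjusted P = 0.00232) and SPTLC1, a subunit of the enzyme that starts sphingolipid synthesis, at 0.43 ± 0.11 (adjusted P = 0.000425). The other neighbors with a mean of at least 10 reads did not pass with DESeq2, while edgeR called 7 neighbors in this comparison, ANKRD19P among them (1.57, adjusted P = 0.0296). Those that did not pass with DESeq2 were CKS2, SECISBP2, AUH, IARS, NOL8, ECM2, CENPP, IPPK, BICD2, ANKRD19P, ZNF484 and C9orf47, with log2 fold changes from -1.01 (ECM2) to 1.54 (ANKRD19P), the 2 ends resting on genes with a mean under 20 reads. The median over the 24 tested was 0.42, against 0.01 for all genes tested.

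Between HCl3 and UT, 3 of 23 neighbors were higher and 0 lower, which is 13.0%, where 14.8% of the 15766 genes tested were called (11.1% higher and 3.74% lower). S1PR3 rose by 1.46 ± 0.15 (adjusted P = 2.04e-20), NFIL3 by 0.74 ± 0.13 (adjusted P = 1.54e-07) and ROR2 by 0.69 ± 0.14 (adjusted P = 7.09e-06), the last not called without HCl3 replicate 2 (0.60). The median over the 23 was 0.27, against 0.011 for all genes. Without the fold threshold 5 passed (31.4% of all genes), with SPTLC1 at 0.32 ± 0.10 and IARS at -0.39 ± 0.09 added.

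**Figure D2:**
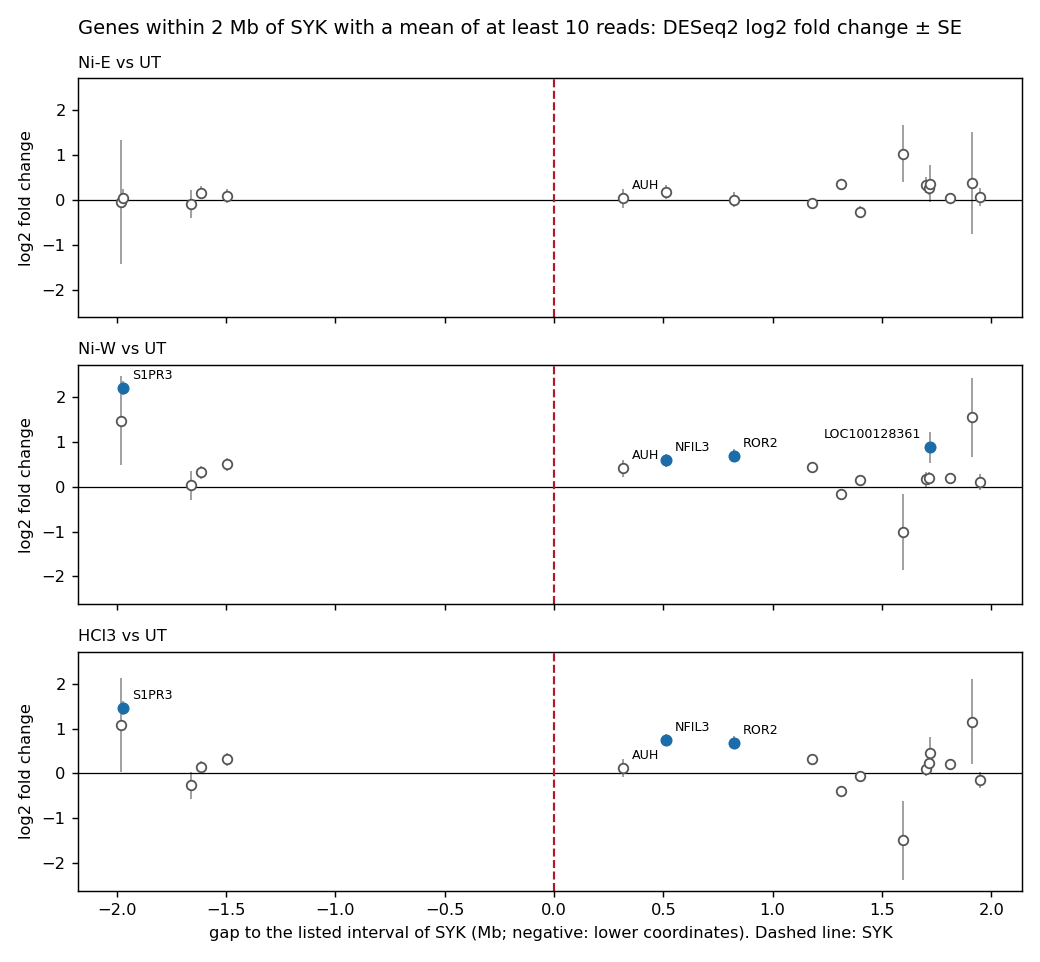
DESeq2 log2 fold change ± SE of the 18 genes within 2 Mb of SYK that had a mean of at least 10 reads, by their gap to SYK in Mb, for Ni-E, Ni-W and HCl3 against UT (2 libraries per group). Filled points are called. For Ni-E 0 are filled, while S1PR3, NFIL3 and ROR2 are filled for Ni-W and for HCl3, and LOC100128361 for Ni-W only. No point lies within 0.3 Mb of SYK.

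Between Ni-W and Ni-E, 2 of 24 neighbors were higher and 1 lower, which is 12.5%, where 20.5% of the 15989 genes tested were called (11.7% higher and 8.81% lower). S1PR3 was higher by 2.15 ± 0.14 (adjusted P = 6.2e-49) and ROR2 by 0.67 ± 0.14 (adjusted P = 1.08e-05). ECM2, an extracellular matrix gene with 31 and 48 reads in Ni-E and 12 and 9 in Ni-W, was lower by a log2 fold change of -2.06 ± 0.70 (adjusted P = 0.0104), and was not called without any 1 of the 4 libraries (-2.34 to -1.74). Without the fold threshold 8 passed (39.2% of all genes).

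Between HCl3 and Ni-W, 0 of 20 neighbors were higher and 1 lower, which is 5.0%, where 4.77% of the 14956 genes tested were called (3.1% higher and 1.66% lower). The 1 was S1PR3, with a log2 fold change of -0.74 ± 0.11 (adjusted P = 4.49e-10), and it was called without each library in turn. ROR2 differed by -0.001 ± 0.11 and NFIL3 by 0.16 ± 0.11, and neither passed (adjusted P = 0.998 and 0.366). The median over the 20 was -0.22, against -0.001 for all genes tested, and 3 passed without the fold threshold (16.6% of all genes).

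The partners of SYK were followed through 65 genes in 5 lists. Of these, 15 had 0 reads in every library and 32 had a mean of at least 10. The list of the SYK family and of ITAM receptors and adapters was close to empty, with 10 of its 16 members at 0 reads in every library and 0 with a mean of 10. ZAP70, the only other kinase of the family, had 0 reads in all 8 libraries. So had TYROBP, an ITAM adapter of myeloid and natural killer cells. FCER1G, the ITAM adapter of Fc receptors, had 3 and 3 reads in UT and 7 and 4 in Ni-E, against 8 and 8 in Ni-W, while HCl3 had 2 and 5, and by RPKM Ni-W overlapped with Ni-E, as UT did with HCl3. DESeq2 could test 3 of the 16 in each comparison with UT, 5 in Ni-W against Ni-E and 1 in HCl3 against Ni-W. None of these was called, with 0 at an unadjusted P under 0.05 in each comparison. With so few reads these tests had little power. edgeR called 0 as well, but it first leaves out genes with low counts, so its 0 adds nothing.

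Over all 5 lists, 6 of 38 members tested were called in Ni-W against UT (4 higher and 2 lower, 15.8%, against 15.7% of all genes). In HCl3 against UT there were 8 of 38 (7 higher and 1 lower, 21.1%, against 14.8%), and in Ni-E against UT 2 of 35 (both higher, 5.71%, against 5.8%). Median log2 fold changes of the members lay between 0.02 and 0.027 in these comparisons, against -0.002 to 0.011 for all genes. The 6 calls in Ni-W became 3 without UT replicate 2 or Ni-W replicate 1, and the 8 in HCl3 became 4 without HCl3 replicate 1. The 2 in Ni-E became 1 without UT replicate 2 or Ni-E replicate 2, and 0 without Ni-E replicate 1.

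Integrins were the receptors on these lists with reads in quantity. ITGB1, the common beta chain, stood between 129.77 and 176.94 RPKM in all libraries and did not pass in Ni-W or HCl3 against UT. It passed the adjusted P but not the fold threshold in Ni-E against UT (-0.33 ± 0.11, adjusted P = 0.0321) and in Ni-W against Ni-E (0.37 ± 0.09, adjusted P = 0.000191). ITGB3, the beta chain of the vitronectin receptor, stood at 0.43 and 0.45 RPKM in UT and 1.08 and 1.10 in Ni-E, against 2.15 and 2.19 in Ni-W, while HCl3 had 2.64 and 2.35. Each group lay above the one before without overlap, and ITGB3 was already higher in nickel, where SYK had no read. It rose by 1.25 ± 0.30 in Ni-E (adjusted P = 0.000776), by 2.26 ± 0.24 in Ni-W (adjusted P = 2.25e-19) and by 2.44 ± 0.23 in HCl3 (adjusted P = 5.84e-25). The Ni-E call was lost without any 1 of the 4 libraries (1.22 to 1.27), and the other 2 were held without each library in turn.

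Of the 8 Src family kinases, SRC, LYN, FYN and YES1 had a mean of at least 10 reads, and LCK had 0 in every library. YES1 was the only one called against UT, as 1 of 4 tested in HCl3 (25.0%, against 14.8% of all genes). In Ni-W 0 of 4 were called, although all 4 passed the adjusted P without the fold threshold (31.1% of all genes). YES1 stood at 53.03 and 63.07 RPKM in UT and 61.53 and 58.40 in Ni-E, against 40.07 and 44.82 in Ni-W, while HCl3 had 36.61 and 33.14, with both washed-out groups below the others. Its log2 fold change was -0.79 ± 0.11 in HCl3 (adjusted P = 1.11e-11) and -0.49 ± 0.12 in Ni-W, which passed the adjusted P (0.000275) but not the fold threshold. SRC went the other way, at 0.50 ± 0.11 in Ni-W (adjusted P = 0.000101) and 0.56 ± 0.10 in HCl3 (adjusted P = 6.85e-07), also under the fold threshold. LYN (-0.35 ± 0.13, adjusted P = 0.0297) and FYN (-0.42 ± 0.11, adjusted P = 0.00121) were lower in Ni-W by less than the threshold.

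Among the 29 substrates, adapters and effectors, 3 of 21 tested were called in Ni-W against UT (2 higher and 1 lower, 14.3%, against 15.7% of all genes) and 5 of 21 in HCl3 (all higher, 23.8%, against 14.8%). BCL10 (-0.06 ± 0.13 in Ni-W and -0.09 ± 0.13 in HCl3) and MALT1 (0.21 ± 0.13 and 0.02 ± 0.12), partners in a complex that activates NF-kB, did not pass against UT.

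HCLS1, a relative of cortactin found mainly in blood cells, had 1 and 1 reads in UT and 4 and 3 in Ni-E, against 16 and 17 in Ni-W, while HCl3 had 38 and 34. It was at least 3.08-fold above the floor in Ni-W (adjusted P = 0.032) and at least 7.77-fold in HCl3 (adjusted P = 0.000579). The Ni-W call was lost without any 1 of the 4 libraries (log2 fold change 3.41 to 4.08), and the HCl3 call without HCl3 replicate 1 (4.76). PLCG2, the phospholipase C gamma of B cells, stood at 0.19 and 0.18 RPKM in UT and 0.25 and 0.25 in Ni-E. Ni-W had 0.33 and 0.31, and HCl3 0.41 and 0.44. It rose by 1.16 ± 0.32 in HCl3 (adjusted P = 0.00208), a call that was lost without HCl3 replicate 1 (1.22) or 2 (1.09). In Ni-W PLCG2 rose by 0.77 ± 0.36 and did not pass with DESeq2 (adjusted P = 0.09). It was called there by edgeR (0.77, adjusted P = 0.0173) and by DESeq2 with all 8 libraries in 1 fit (0.77, adjusted P = 0.0297).

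BLNK had no more than 1 read in any library, and LCP2, BTK and VAV3 had 0 in each. SH3BP2, an adapter that binds SYK, and the exchange factor VAV2, both named after their values were seen, rose in HCl3 by 0.67 ± 0.14 (adjusted P = 1.6e-05) and 0.64 ± 0.10 (adjusted P = 2.37e-08). In Ni-W they stood at 0.52 ± 0.15 and 0.42 ± 0.12, under the fold threshold. The SH3BP2 call was lost without UT replicate 2 (0.54) or HCl3 replicate 1 (0.61).

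GAB2, a scaffold that joins receptors to PI3K, was also named after its values were seen and went the other way in Ni-W. It stood at 3.31 and 3.30 RPKM in UT and 4.09 and 4.32 in Ni-E, against 1.80 and 1.75 in Ni-W, while HCl3 had 2.74 and 2.84. Ni-W was the lowest group for GAB2 and the highest for SYK. The log2 fold change in Ni-W was -0.93 ± 0.16 against UT (adjusted P = 6.67e-08) and -1.24 ± 0.15 against Ni-E (adjusted P = 1.06e-15). HCl3 was 0.64 ± 0.14 above Ni-W (adjusted P = 0.000117), the only call of 34 members tested there (2.94%, against 4.77% of all genes), and it was lost without HCl3 replicate 1 (0.67) or 2 (0.61).

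Of the 9 inhibitors, INPP5D and UBASH3B were called against UT. In Ni-W 1 of 8 tested was higher and 1 lower (25.0%, against 15.7% of all genes). In HCl3 1 of 7 was higher (14.3%, against 14.8%), and in Ni-E 1 of 6 (16.7%, against 5.8%). INPP5D, the lipid phosphatase SHIP1, had 8 and 8 reads in UT and 86 and 62 in Ni-E, against 44 and 28 in Ni-W, while HCl3 had 46 and 46, and was highest while nickel was present. It rose by 3.03 ± 0.62 in Ni-E (adjusted P = 4.82e-05), 1.83 ± 0.75 in Ni-W (adjusted P = 0.0463) and 2.21 ± 0.68 in HCl3 (adjusted P = 0.00533). The Ni-E call was lost without Ni-E replicate 1 (2.76), the Ni-W call without any 1 of the 4 libraries (1.57 to 2.09) and the HCl3 call without UT replicate 1 (1.95), HCl3 replicate 1 (2.18) or HCl3 replicate 2 (2.23).

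UBASH3B, a phosphatase that can act on SYK, stood at 6.48 and 8.55 RPKM in UT and 4.63 and 5.43 in Ni-W. It fell by 0.61 on the log2 scale (log2 fold change -0.61 ± 0.15, adjusted P = 0.000451), and the call was lost without UT replicate 2 (-0.41) or Ni-W replicate 1 (-0.49), and with all 8 libraries in 1 fit (-0.62). PTPN6, the phosphatase SHP-1 of blood cells, had 4 and 6 reads in HCl3 and 0 in the other 6 libraries.

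Against Ni-E, 7 of 40 members were called in Ni-W (3 higher and 4 lower, 17.5%, against 20.5% of all genes), with a median of 0.075 against 0.017. The higher ones included ITGB3 (0.99 ± 0.20, adjusted P = 6.56e-06) and CBLB, a ubiquitin ligase (0.75 ± 0.20, adjusted P = 0.000879). GAB2, INPP5D (-1.21 ± 0.46, adjusted P = 0.0263), PIK3AP1, a PI3K adapter (-0.93 ± 0.24, adjusted P = 0.000635), and PTPN22, a tyrosine phosphatase of lymphocytes (-2.31 ± 0.75, adjusted P = 0.00748), were lower. The count was 4 without Ni-E replicate 2 and 3 without Ni-W replicate 1, and ITGB3 and GAB2 were called without each library in turn. CBLB was lost without Ni-E replicate 2 (0.64), Ni-W replicate 1 (0.80) or Ni-W replicate 2 (0.71), and PIK3AP1 without Ni-E replicate 2 (-0.82) or Ni-W replicate 1 (-0.81). PTPN22 was lost without Ni-E replicate 1 (-2.06), Ni-E replicate 2 (-2.50) or Ni-W replicate 1 (-1.61), and INPP5D without any 1 of the 4 libraries (-1.45 to -0.95).

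**Figure D3:**
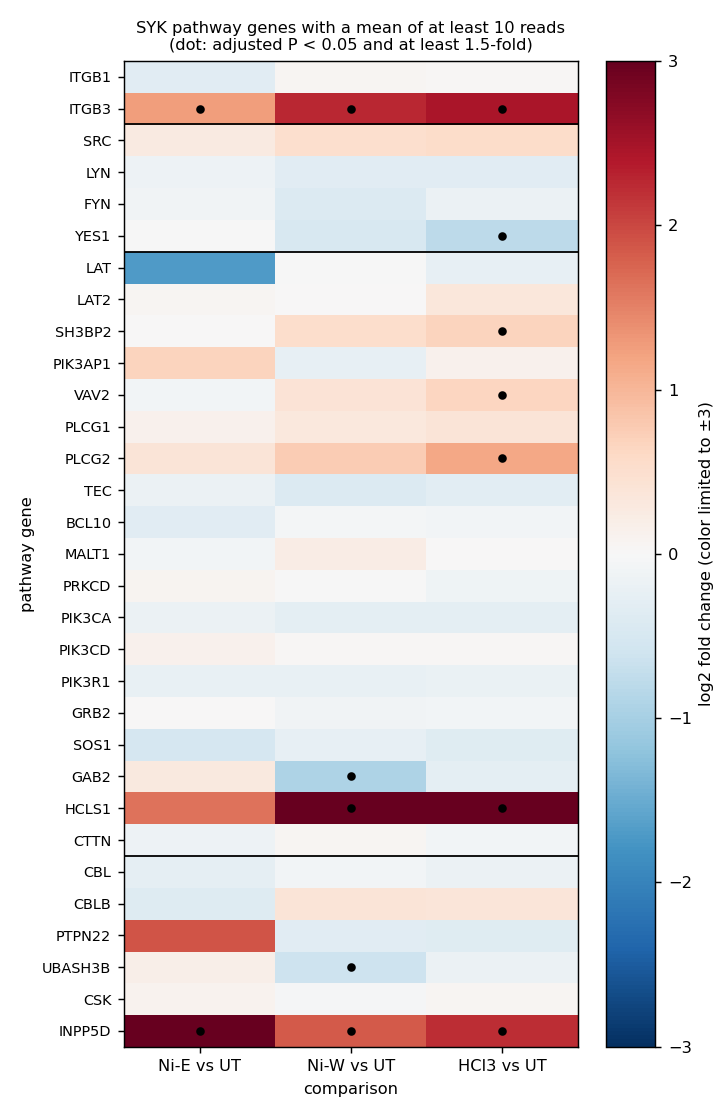
DESeq2 log2 fold change against UT (color, limited to ±3) of 31 pathway genes with a mean of at least 10 reads, in Ni-E, Ni-W and HCl3, with lines between the lists (integrins, Src family kinases, substrates and effectors, inhibitors). Dots mark calls; HCLS1 is dotted in Ni-W and HCl3, and ITGB3 and INPP5D in all 3 columns.

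Markers of other cells were read beside SYK, since its usual home is blood. Of 13 haematopoietic markers, 5 had 0 reads in every library, SPI1 among them, and PTPRC (CD45) had at most 1 read per UT or Ni-E library, 6 and 6 reads in Ni-W, while HCl3 had 3 and 7. Only CD14 and CORO1A had a mean of at least 10 reads. The summed RPKM of the list was 2.82 to 4.56 in UT, 5.07 to 5.22 in Ni-E, 5.65 to 7.19 in Ni-W and 5.75 to 7.39 in HCl3. The washed-out groups overlapped in this sum while SYK differed 29.95-fold between them by mean RPKM. CD14, also read in UT, lay higher in the washed-out groups without overlap, at 1.80 and 1.06 RPKM in UT and 1.07 and 1.96 in Ni-E, against 4.15 and 2.85 in Ni-W, while HCl3 had 2.84 and 4.07. CORO1A did not share this pattern, and its highest group mean was that of Ni-E. UT had 2.73 and 1.76 RPKM of CORO1A, Ni-E 3.87 and 3.17, Ni-W 2.86 and 2.59, and HCl3 2.81 and 3.18.

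Of the keratins of simple epithelium, KRT8 and KRT18 were abundant and KRT19 was low, while CDH1, the gene of E-cadherin, was near 0. KRT8 stood at 192.19 to 310.30 RPKM and KRT18 at 144.46 to 245.18 over the 8 libraries, while CDH1 stayed at 0.01 to 0.11. KRT19 had 0 and 1 reads in UT and 1 and 0 in Ni-E, against 59 and 27 in Ni-W, while HCl3 had 41 and 49. The summed RPKM of the 7 epithelial markers was 602 to 636 in UT, 579 to 794 in Ni-E, 947 to 972 in Ni-W and 935 to 996 in HCl3. The sum of the 4 listed markers of differentiated airway and alveolar cells was low, at 0.01 to 0.08 in UT, 0.05 to 0.11 in Ni-E, 0.27 to 0.29 in Ni-W and 0.18 to 0.24 in HCl3, and the washed-out groups lay above the others. It was carried by NKX2-1, a transcription factor of lung and thyroid named after its values were seen, which had 0 and 0 reads in UT and 4 and 8 in Ni-E, against 34 and 16 in Ni-W, while HCl3 had 17 and 16. The part of these shifts in the SYK values was not tested.

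The 10 genes whose pattern was most like that of SYK lay on other chromosomes, although with a pseudocount of 0.1 in place of 1 a gene of chromosome 9, C9orf114, ranked 4 (r = 0.9863). Likeness was measured as Pearson's r of log2(RPKM + 1) over the 8 libraries, among 12057 genes with at least 1 RPKM in some library. The 8 points are 4 pairs of replicates, and r mainly reflects the step between Ni-W and the rest, so it is given as a description. In all, 5 genes had an r over 0.99, and 0 of the 10 highest lay on chromosome 9. The share of that chromosome among the genes compared was not computed, so this count is no result about the locus.

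LPHN2, an adhesion receptor on chromosome 1, had the highest r, 0.9976. It stood at 0.02 and 0.01 RPKM in UT and 0.01 and 0.00 in Ni-E, against 4.16 and 4.56 in Ni-W, while HCl3 had 0.22 and 0.22. HCl3 lay between Ni-W and the other groups, as for SYK. RCAN2 (r = 0.9957) was at 0.99 and 1.08 RPKM in Ni-W and listed at 0 in the other 6 libraries. ENPP5 (r = 0.9942), which lies beside RCAN2 on chromosome 6, stood at 1.53 and 1.32 RPKM in Ni-W, 0.12 and 0.19 in HCl3 and up to 0.10 elsewhere. COBLL1 (r = 0.9951), on chromosome 2, stood at 1.14 and 1.25 RPKM in Ni-W and no more than 0.02 elsewhere.

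TFG (r = 0.9918), a gene of the secretory pathway on chromosome 3, shows that r compares shape and not size. It was read at 88.37 to 95.27 RPKM in UT, Ni-E and HCl3 and at 128.00 and 125.22 in Ni-W. With a pseudocount of 0.1 in place of 1, 5 of the 10 highest genes were shared, with LPHN2 still at the top and KCTD3 next. With no minimum RPKM 1 of 10 was shared, again LPHN2, when genes under 1 RPKM in every library could enter the list.

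**Figure D4:**
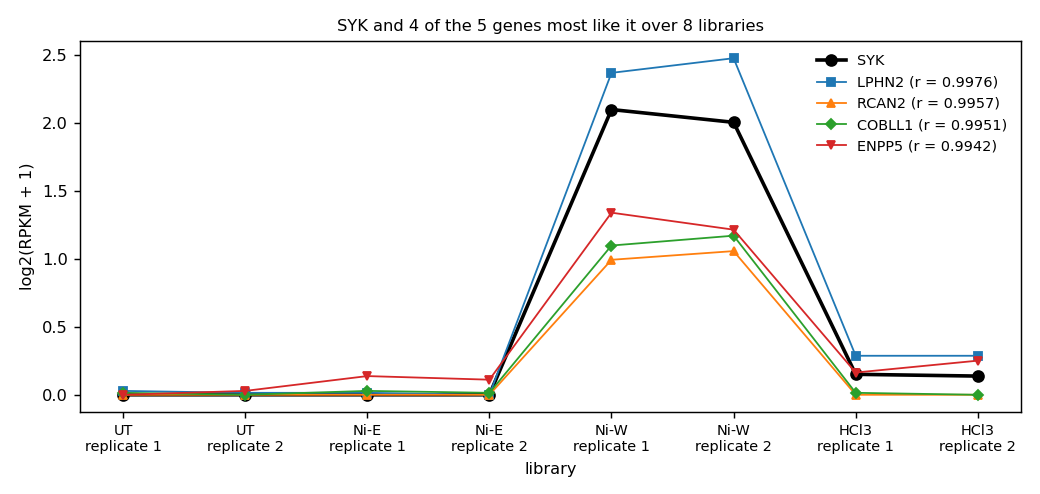
log2(RPKM + 1) of SYK and of 4 of the 5 genes most like it in each library, with lines only to guide the eye, since the libraries have no order. All 5 genes are highest in both Ni-W libraries, and SYK, LPHN2 and ENPP5 keep a low level in HCl3 where RCAN2 and COBLL1 are at or near 0.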

How the data were processed

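RNA-Seq libraries were made from total RNA of 2 biological replicates per group. Reads were aligned by the authors to hg19 with STAR (2.4 in the submitters' processing notes), reads with several alignments were removed, and the deposited read counts per RefSeq gene came from BioWardrobe. The deposited RPKM values were derived by the authors from these counts and rounded to 2 decimals. Whether counting used the strand is not given in the sources used here. Groups and replicate numbers were taken from the labels, and totals set the precision, with a floor of 3 reads. No molecular identifiers are described, so floors and intervals speak of counting error alone.

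Counts of all genes were tested in R 4.3.3 with DESeq2 1.42.0 (two-sided Wald test on median-of-ratios scaled counts, Benjamini-Hochberg adjustment, default independent filtering), with the 4 libraries of a pair in each fit. Genes with an adjusted P value under 0.05 and at least a 1.5-fold change were called, as in the study's methods. With 2 libraries per group, a P value rests on a spread estimated over many genes, and an exact permutation test of 2 against 2 could not reach 0.05. Log2 fold changes are given ± SE. A fold against a group at or under 3 reads was computed from the lowest library of the higher group over the level of 3 reads. Neighbors are the listed genes of chromosome 9 within 2 Mb of SYK. Of the 40, 21 had a window in the RefSeq table of start sites.

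SYK, its pathway lists and the markers were chosen with earlier results of these data known. Named genes are SYK, neighbors with a mean of at least 10 reads, up to 3 members per pathway list called in Ni-W or HCl3 against UT, ZAP70, FCER1G, TYROBP and the 5 genes most like SYK. Other genes, such as SHC3, GAB2, SH3BP2, VAV2, BCL10, MALT1, MGMT, PTPN6, CD14 and SRC, were named after their values were seen. Some genes that the counts include are not reported here by name. MUC5AC, a marker of differentiated airway cells, was not analysed here. Alternatives were edgeR 4.0.16 (quasi-likelihood test), TMM size factors, a minimum mean of 10 reads, all 8 libraries in one fit, the replicate suffix as a block, no fold threshold, neighbors within 1 or 5 Mb, and each library left out in turn. The crossed block was added after the data were seen. The scripts were tested on simulated data, and Python 3.11.15 with matplotlib 3.10.9 drew the figures.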

Additional observations from a re-analysis of the deposited data

Results flagged for a closer look

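Among the genes near SYK or in its pathway, 2 differed between the washed-out groups, each tested directly between HCl3 and Ni-W with DESeq2. S1PR3, the sphingosine-1-phosphate receptor 1970 kb from SYK, had a log2 fold change of -0.74 ± 0.11, with both HCl3 libraries below both Ni-W libraries (5.78 and 5.72 against 9.06 and 9.96 RPKM). GAB2, the PI3K scaffold, had a log2 fold change of 0.64 ± 0.14, with both HCl3 libraries above both Ni-W libraries (2.74 and 2.84 against 1.80 and 1.75 RPKM). Groups of 2 libraries are too small for a test of outlying samples, and none was made.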

How the results depend on the processing

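The number of calls moved with the processing. Of 346 alternatives run over the single called genes, 283 kept the call, 63 lost it and 0 reversed the direction. The alternatives refit the same or overlapping libraries for genes already called, so a reversed direction was unlikely and the 0 is no separate support. A gene that an alternative filtered out, such as HCLS1 in Ni-W against UT at a minimum mean of 10 reads, was not counted. edgeR called 4 of 31 pathway genes tested in Ni-E against UT and 5 of 19 neighbors in HCl3 against UT. It called 6 of 20 neighbors in Ni-W against Ni-E, and 2 of 19 neighbors and 2 of 33 pathway genes in HCl3 against Ni-W. The share of all genes called by edgeR was not computed, so its counts stand without a background. Without the fold threshold, neighbors called were 1 of 19 in Ni-E against UT (11.6% of all genes) and 5 of 23 in HCl3 against UT (31.4%). They were 8 of 24 in Ni-W against Ni-E (39.2%) and 3 of 20 in HCl3 against Ni-W (16.6%). Pathway genes called were 4 of 35 in Ni-E against UT (11.6%) and 13 of 38 in Ni-W against UT (31.1%). They were 12 of 40 in Ni-W against Ni-E (39.2%) and 4 of 34 in HCl3 against Ni-W (16.6%). Within 1 Mb of SYK, 2 of 5 genes tested were called in Ni-W against UT (15.7% of all genes). In Ni-W against Ni-E 1 of 5 was called (20.5%), and in HCl3 against Ni-W 0 of 3 (4.77%). Within 5 Mb, 13 of 56 tested were called in Ni-W against UT (15.7% of all genes) and 8 of 57 in HCl3 against UT (14.8%). In Ni-E against UT 1 of 44 was called (5.8%), in Ni-W against Ni-E 13 of 56 (20.5%) and in HCl3 against Ni-W 2 of 49 (4.77%). The cause of these shifts was not tested.

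Without 1 library at a time, neighbors called numbered 0 to 0 in Ni-E against UT, 2 to 4 in Ni-W against UT, 2 to 3 in HCl3 against UT, 2 to 3 in Ni-W against Ni-E and 1 to 1 in HCl3 against Ni-W, and pathway genes 0 to 2, 3 to 6, 4 to 7, 3 to 5 and 0 to 1 in the same order. DESeq2 then assumes that a lone library varies like the other group. The ratio of SYK between Ni-W and HCl3 ran from 28.59 to 31.45 and was 32.7 with TMM library sizes. The bound of SYK in Ni-W over UT ran from 150.4 to 216. It was 147.5 with TMM library sizes and 367 with a floor of 3 reads over the group. Of the 10 genes most like SYK, 6 to 9 were shared without 1 library, 5 with a pseudocount of 0.1 and 1 with no minimum RPKM.

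Whether libraries with the same replicate suffix were handled together cannot be told from 2 libraries per group. Pearson's r was taken between same-suffix libraries on deviations from the group mean. It was -0.11 in Ni-E against UT, 0.22 in Ni-W against UT, -0.16 in HCl3 against UT and -0.11 in Ni-W against Ni-E. In HCl3 against Ni-W it was -0.05. With the suffix as a replicate block, 0, 4, 3, 2 and 1 neighbors and 2, 4, 6, 6 and 1 pathway genes were called in that order. Under the block, LOC100128361, HCLS1 and INPP5D were not called in Ni-W against UT, PLCG2 and INPP5D in HCl3 against UT, nor ECM2 and INPP5D in Ni-W against Ni-E. With the suffixes crossed, added after the data were seen, 0, 3 and 2 neighbors and 2, 7 and 7 pathway genes were called in Ni-E against UT, HCl3 against UT and Ni-W against Ni-E.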
